A study of Homo sapiens with 3 samples.

Results

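Transcript levels of 7 oncofetal genes were examined in RNA-seq tables of cells labelled HepG2, a line long cultured from a human liver cancer. The genes were the insulin-like growth factor 2 mRNA-binding proteins IGF2BP1, IGF2BP2 and IGF2BP3, the let-7 regulators LIN28A and LIN28B, and the chromatin proteins HMGA1 and HMGA2. They were taken by gene name from the deposited tables, on the main chromosomes, and all 7 were found, each with 1 row among 39320 gene rows. The study asked how the m6A methyltransferase METTL3 is spliced in liver cancer and sequenced polyA RNA of wild-type, untransfected cells in 3 libraries, replicates 1 to 3. There was no second genotype or treatment, so genes were compared within each library. The labels do not say whether the replicates were separate cultures, and the spread between them may be technical.

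The tables give coverage (mean read depth over a gene), FPKM (fragments scaled for transcript length and library size) and TPM (FPKM rescaled to a fixed sum in each library). Read counts are not among the values used here, so depth in reads is unknown. As a relative guide to depth, the highest coverage per FPKM lay between 11.5 in replicate 3 and 13.3 in replicate 1. It was taken over genes above 1 FPKM, with mitochondrially encoded genes left out. The label was checked against 17 genes for proteins that hepatocytes secrete. Of these, 15 were below 1 TPM in all 3 libraries, and 11 of them, with ALB, APOA1, APOB and SERPINA1 among them, were listed at 0. Over all protein-coding rows, 59.5% reached 1 TPM in every library and 20.0% were listed at 0 in every library. The summed level of the list was 33.8 to 35.9 TPM, nearly all of it from RBP4 and VTN. The libraries are therefore called by their label only. Of the other marker lists, 2 of 5 epithelial, 3 of 9 mesenchymal, 1 of 5 blood and 1 of 4 pluripotency genes reached 1 TPM in each library. Their summed levels were 4517 to 4772, 695 to 785, 9.82 to 11.6 and 4.203 to 4.57 TPM. Few genes carried these sums. KRT8 and KRT18 had means of 2610 and 2017 TPM, whereas KRT19 and EPCAM were below 0.2 TPM in each library. VIM had a mean of 694 TPM, CDH2 of 27.1 TPM and COL1A1 of 6.93 TPM, whereas COL1A2, COL3A1, DCN and LUM were below 0.1 TPM in each library. CD68, with a mean of 9.41 TPM, led the blood list, and POU5F1 made up the whole sum of the pluripotency list. PTPRC and CD3E of the blood list, SPARC of the mesenchymal list and NANOG, SOX2 and DPPA4 of the pluripotency list were listed at 0 throughout. The part of any other cell type in the levels below was not tested. In bulk RNA, fewer cells of a type and less RNA per cell cannot be told apart.

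The 7 genes belong to a regulatory circuit of fetal tissue. LIN28A and LIN28B are RNA-binding proteins that bind the precursors of let-7 microRNAs and block their maturation. Mature let-7 represses mRNAs that carry matches to its seed, and HMGA2, LIN28B and the IGF2BP genes are known targets. IGF2BP proteins bind mRNAs through KH domains, stabilise many of them and have been described as readers of m6A. HMGA proteins bind AT-rich DNA through AT-hooks and shape chromatin. IGF2BP1, IGF2BP3, LIN28B and HMGA2 are mostly fetal genes that many tumors express again, whereas IGF2BP2 and HMGA1 are also found in adult tissues.

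The let-7 sequences are shown because their seed links the 7 genes. All 9 distinct mature 5p forms of let-7 and miR-98 in RefSeq (GRCh38.p14), from 12 genes, share the same bases 2 to 8. Printed here 5′ to 3′, with these bases in capitals, are let-7a as the common form, let-7d because its hairpin was the only 1 of the 12 with at least 1 TPM in each library, and miR-98 as the form named apart.
hsa-let-7a-5p: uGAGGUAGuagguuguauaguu
hsa-let-7d-5p: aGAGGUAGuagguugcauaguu
hsa-miR-98-5p: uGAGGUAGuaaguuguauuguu

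The complement of the seed, CTACCTC, was searched on the sense strand of annotated 3′ UTRs (GENCODE v44, MANE Select transcripts). It was present in all 7 genes, with 4 matches in HMGA2, 4 in LIN28B, 4 in IGF2BP1 and 1 in each of the others. Among 18773 other genes, 9.81% of 3′ UTRs held a match, at 0.0626 matches per kilobase. Many of these 3′ UTRs are shorter, with a median of 1088 nt against 1347 nt in HMGA1 and 6701 nt in IGF2BP1. Among 3′ UTRs within 20% of the length of each gene's own, the share with a match was 8.42% for HMGA1, 12.2% for IGF2BP3, 12.7% for IGF2BP2, 14.3% for HMGA2, 16.0% for LIN28A, 22.96% for LIN28B and 32.6% for IGF2BP1. As many as 4 matches were found in 0.0459% of 2179 3′ UTRs with a length similar to that of HMGA2, in 0.132% of 1516 for LIN28B and in 0.405% of 740 for IGF2BP1. These are letters in a reference sequence, and their binding by let-7 was not measured here.

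The match nearest to the stop codon of each gene is printed 5′ to 3′ on the transcribed strand, with the complement of the seed in capitals, 20 bases before it and 2 after it. Coordinates are GRCh38. In IGF2BP1, IGF2BP2, IGF2BP3, LIN28A, LIN28B and HMGA2 the printed match is followed by A, the base that often flanks a let-7 site. In HMGA1 it is followed by T. Of the 4 matches in each gene, 3 in IGF2BP1, 2 in LIN28B and 1 in HMGA2 are followed by A.
IGF2BP1 (chr17:49051056-49051084, plus): aatgctgtgtgcgaagtaaaCTACCTCaa
IGF2BP2 (chr3:185644219-185644247, minus): agaaaaacacacagaagaagCTACCTCag
IGF2BP3 (chr7:23311794-23311822, minus): aaacgtgcatttttactcaaCTACCTCag
LIN28A (chr1:26427343-26427371, plus): ggagtgcacagcctattgaaCTACCTCat
LIN28B (chr6:105078807-105078835, plus): cctttacccggttgcaaagtCTACCTCat
HMGA1 (chr6:34245824-34245852, plus): atttttcctctgttcacaaaCTACCTCtg
HMGA2 (chr12:65963293-65963321, plus): ggggcgccaacgttcgatttCTACCTCag

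**Figure D1:**
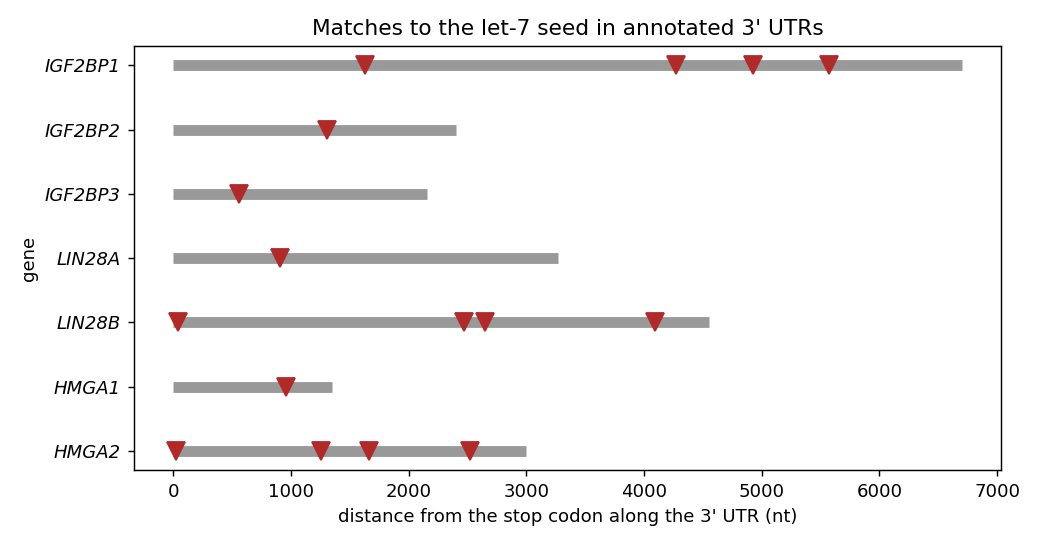
Matches to the let-7 seed (triangles) along the 3′ UTR of the MANE Select transcript of each gene (grey bars, to scale). The x axis is the distance from the stop codon in nt. The first match lies 21 nt after the stop codon in HMGA2 and 44 nt after it in LIN28B, and IGF2BP1 has the longest 3′ UTR, 6701 nt.

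Of the 7 genes, 5 reached 1 TPM in every library, and the 2 LIN28 genes were listed at 0 in every library. For background, 33.8% of all gene rows and 59.5% of protein-coding rows reached 1 TPM in every library, and 20.0% of protein-coding rows were listed at 0 in all 3. The median of the 7 mean levels was 14.0 TPM, against 4.99 TPM over 18743 protein-coding rows. The plot of levels by library shows HMGA1 highest, the 3 IGF2BP genes in the middle and HMGA2 low.

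**Figure D2:**
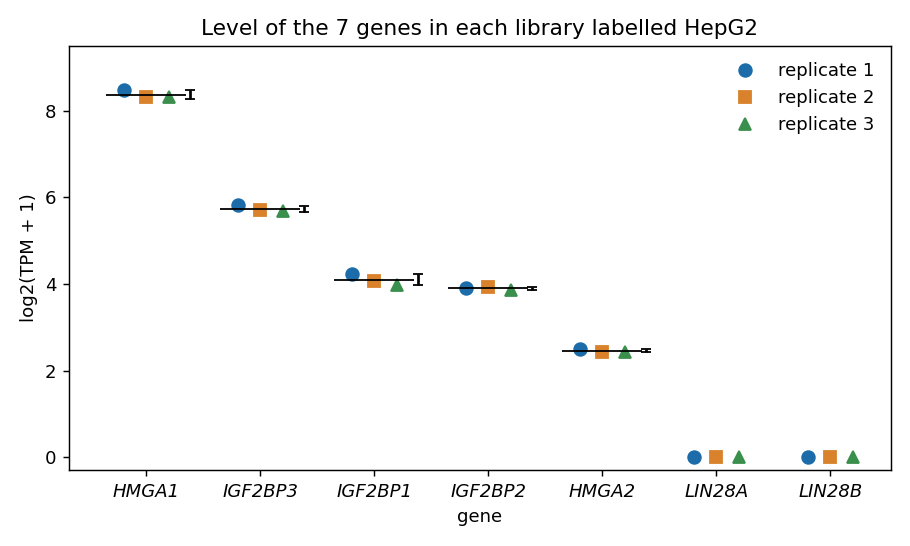
Level of each gene as log2(TPM + 1) in replicates 1, 2 and 3 (points), with the mean (line) and SD (bar, n = 3) for genes above 0. HMGA1 lies above 8 in all 3 libraries, and LIN28A and LIN28B lie at 0.

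IGF2BP3 was the most abundant of the 3 IGF2BP genes. Its row spans chr7:23310209-23470674 on the minus strand, and its MANE transcript has 15 exons and a coding region of 1740 nt, the stop codon included here and for the genes below. It had 55.5, 51.4 and 50.6 TPM in replicates 1, 2 and 3, a mean of 52.5 ± 2.62 TPM (SD, n = 3). This was 63.5 ± 0.449% of the summed TPM of the family (SD, n = 3), and every library was above every value of the other 2 genes.

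IGF2BP1, the founding member known for binding ACTB and MYC mRNA, spans chr17:48997385-49056145 on the plus strand. Its transcript has 15 exons and, at 8796 nt, is the longest of the 7 MANE transcripts. It had 17.9, 15.8 and 14.9 TPM in replicates 1, 2 and 3, or 16.2 ± 1.52 TPM (SD, n = 3). Its coefficient of variation of 9.42% was exceeded by 25.8% of the 13753 genes whose mean reached 1 TPM, and the median over those genes was 6.12%. The highest value was in replicate 1, which also had the highest coverage per FPKM, and the part of depth in it was not tested.

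IGF2BP2, the form that adult tissues retain, spans chr3:185643131-185825056 on the minus strand and has 16 exons. It had 14.1, 14.3 and 13.6 TPM in the 3 libraries, a mean of 14.0 ± 0.347 TPM (SD, n = 3). The values were close together, with a coefficient of variation of 2.48%, which 86.7% of the same genes exceeded.

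Within libraries, IGF2BP3 was 3.11 to 3.40 times as high as IGF2BP1 and 3.59 to 3.94 times as high as IGF2BP2 by TPM. The log2 ratio of IGF2BP1 to IGF2BP3 was -1.64 ± 0.06 and that of IGF2BP2 to IGF2BP3 was -1.83 ± 0.07 (SD, n = 3), on the log2(TPM + 1) scale. IGF2BP1 and IGF2BP2 were the closest pair. The fold of IGF2BP1 over IGF2BP2 was 1.27 in replicate 1 and 1.09 in the library with the smallest fold, giving a log2 ratio of 0.19 ± 0.11 (SD, n = 3). The lowest value of IGF2BP1, 14.9 TPM, was just above the highest of IGF2BP2, 14.3 TPM, so the ranges did not overlap but nearly met. Without replicate 1, the log2 ratio of this pair was 0.13. All of these ratios pointed one way in 3 of 3 libraries. By exact permutation of signs (two-sided), p was 0.25 for each, the smallest that 3 libraries allow, and 0.25 after Benjamini-Hochberg adjustment over the 4 pairs compared here, including HMGA2 to HMGA1.

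LIN28A, the form of embryonic stem cells, has its row at chr1:26410778-26429728 on the plus strand, and its MANE transcript has 4 exons. It was listed at 0 TPM, 0 FPKM and 0 coverage in replicates 1, 2 and 3. LIN28B, the paralog that tumors express more often, spans chr6:104936999-105083332 on the plus strand and also has 4 exons. It too was listed at 0 in all 3 libraries by each measure, so the groups of values of LIN28A and LIN28B cannot be ordered and no ratio was computed. Values as low as above 0 and below 0.1 TPM were listed for 1019, 983 and 982 protein-coding rows in replicates 1, 2 and 3. An exact 0 in such tables can also be a failed estimate, and without counts no upper limit can be given.

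The text of the zeros differed between libraries. LIN28B was written as 0.0 in replicates 1 and 3, in a block of rows at the end of the table, 8357 and 8212 of them on the main chromosomes, and with 6 decimals in replicate 2, as was LIN28A in all 3. None of those main-chromosome rows overlapped a row above 0 in the same library. What separates the 2 ways of writing 0 is not stated in the sources used here.

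HMGA1 was the most abundant of the 7 genes. Its row, chr6:34236800-34246231 on the plus strand, spans 9432 bp and is the shortest of the 7, with 6 exons in the MANE transcript and a coding region of 324 nt. It had 359, 319 and 318 TPM in replicates 1, 2 and 3, or 332 ± 23.3 TPM (SD, n = 3). Replicate 1 was highest, and the other two libraries were nearly equal. GENCODE v44 lists 8 pseudogenes of HMGA1, and the tables hold a row for HMGA1P7, at 0 in all 3 libraries. Reads from near-identical copies may have been counted for HMGA1, so its level is uncertain to that extent.

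HMGA2 spans chr12:65824460-65966291 on the plus strand, a span of 141832 bp with 5 exons in the MANE transcript and a coding region of 330 nt. It had 4.69, 4.42 and 4.43 TPM in the 3 libraries, a mean of 4.51 ± 0.155 TPM (SD, n = 3). HMGA1 was 71.9 to 76.6 times as high by TPM, and HMGA2 made up 1.34 ± 0.0460% of the summed TPM of the pair (SD, n = 3). The log2 ratio of HMGA2 to HMGA1 was -5.92 ± 0.06 (SD, n = 3) on the log2(TPM + 1) scale and was negative in 3 of 3 libraries. The exact permutation of signs again gave p = 0.25. Of 7 annotated protein-coding HMGA2 transcripts with a stop codon, 1, the MANE transcript, holds let-7 matches in its 3′ UTR, compared with 1 of 2 for IGF2BP1, 3 of 4 for IGF2BP2, 6 of 7 for HMGA1 and 2 of 2 for each of IGF2BP3, LIN28A and LIN28B. The tables give 1 value per gene, and which HMGA2 transcripts were present was not analysed here.

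The order by mean TPM was HMGA1, IGF2BP3, IGF2BP1, IGF2BP2 and HMGA2, with both LIN28 genes at 0. Each gene was above the next in 3 of 3 libraries, by TPM and by coverage, and no neighbours overlapped. The order was set by the means of these same libraries, so this describes them and does not test the order. Among the 13753 genes whose mean reached 1 TPM, HMGA1 ranked 365th and exceeded 97.4% of the others. IGF2BP3 exceeded 79.2%, IGF2BP1 51.3%, IGF2BP2 47.6% and HMGA2 22.7%. The median of these genes was 15.4 TPM, which lies between the means of IGF2BP1 and IGF2BP2.

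**Figure D3:**
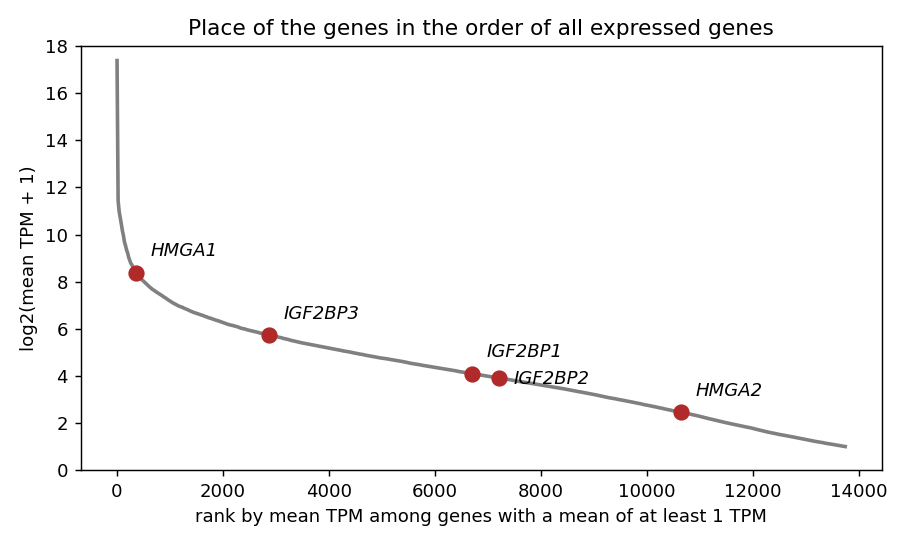
Mean level of every gene with at least 1 TPM, as log2(mean TPM + 1), against its rank (grey line), with 5 of the 7 genes marked in red. HMGA1 sits on the steep part at rank 365, IGF2BP1 and IGF2BP2 near the middle at ranks 6699 and 7205, and HMGA2 at rank 10637.

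The protein-coding genes most like each gene in level were those with the smallest log2(TPM + 1) difference in the library where they differed most, over 3 libraries. For IGF2BP1 they were SLC7A11, a cystine transporter, and AFF1, with largest differences of 0.024 and 0.026. KYAT1 and ZMYM2 were nearest to IGF2BP2, at 0.020 and 0.025. MYL6B and ADPGK were nearest to IGF2BP3, at 0.015 and 0.021. For HMGA1 they were SEC61A1, a subunit of the protein translocation channel, and SRSF2, a splicing factor, at 0.025 and 0.047. For HMGA2 they were C10orf88 and AGO3, an Argonaute protein, at 0.018 and 0.024. This likeness is in level alone, in 1 condition.

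Coverage gave the same order but other distances within the IGF2BP family. Coverage in replicates 1, 2 and 3 was 1113, 969.5 and 868 for HMGA1, 213, 196 and 170.5 for IGF2BP3, 49.4, 42.8 and 36.0 for IGF2BP1, 29.9, 28.3 and 24.96 for IGF2BP2 and 15.5, 14.1 and 11.5 for HMGA2. Replicate 1 was highest and replicate 3 lowest for all 5 genes, the same order as the highest coverage per FPKM of the libraries. By coverage, the log2 ratio of IGF2BP2 to IGF2BP3 was -2.76, against -1.83 by TPM. That of IGF2BP1 to IGF2BP3 was -2.16 against -1.64, that of IGF2BP1 to IGF2BP2 0.60 against 0.19, and that of HMGA2 to HMGA1 -6.07 against -5.92. Each ratio adds 1 to both values, which weighs most at the low level of HMGA2. With 0.1 added instead, HMGA2 to HMGA1 by TPM was -6.17, so no difference in distance is read for this pair. The distances within the IGF2BP family thus depend on the measure. The coverage per FPKM of all 5 genes was below the highest in the library, at 32.2% to 33.9% for IGF2BP2, 44.05% to 44.14% for IGF2BP1, 49.4% to 49.6% for HMGA1, 47.3% to 52.8% for HMGA2 and 61.3% to 62.3% for IGF2BP3. GENCODE v44 lists 11, 6, 9, 11 and 18 transcripts of these genes. The part that several transcripts have in this ratio was not tested.

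**Figure D4:**
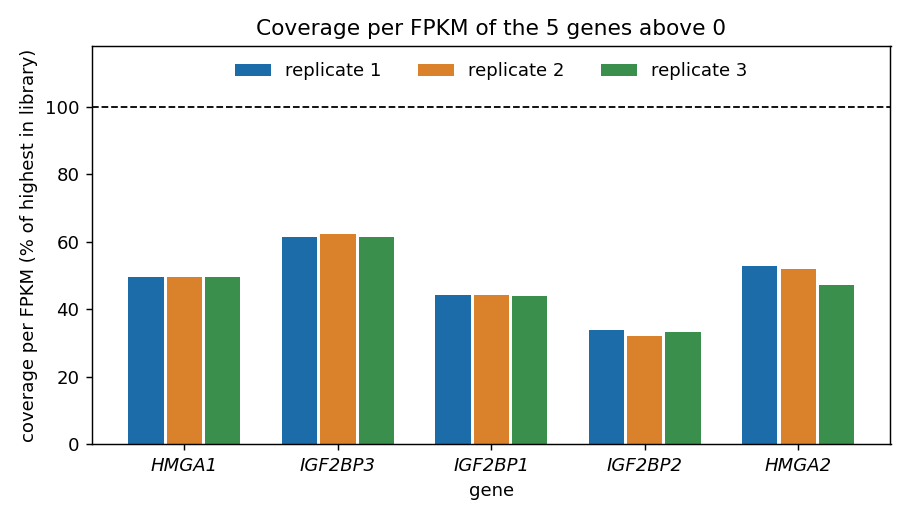
Coverage per FPKM of the 5 genes above 0, as a percentage of the highest value in the same library (bars from 0, 1 per library). The dashed line marks that highest value, taken over genes above 1 FPKM that are not mitochondrially encoded. All bars lie between 32.2% and 62.3%.

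Rows that overlap the 7 genes were low, with MIR6835 as the exception. MIR6835, a hairpin of 64 bp within HMGA1 on the same strand, had 13.4, 11.4 and 8.88 TPM in replicates 1, 2 and 3, and its reads cannot be told apart from those of HMGA1. HMGA2-AS1, antisense to HMGA2 over 31099 bp, was listed at 0, 0.388 and 0.0626 TPM. RPSAP52, which overlaps the 5′ end of HMGA2 on the opposite strand over 2515 bp, was listed at 0.0296, 0.162 and 0 TPM. IGF2BP2-AS1 was listed at 0.0653 TPM in replicate 1 and at 0 in the others. LIN28B-AS1 and MIR548AQ, which lies in IGF2BP2, were at 0 throughout, and SNORD65C, which lies in IGF2BP3, had 0.591 ± 0.105 TPM (SD, n = 3). No row overlapped IGF2BP1 or LIN28A. The strand setting of the quantification is not given in the sources used here, so reads of a gene and its antisense partner cannot be told apart.

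Most genes of let-7 processing were expressed. Of 12 genes of let-7 processing, 11 reached 1 TPM in each library, against 59.5% of protein-coding rows, and the list median was 20.5 TPM. The nuclear processor DROSHA had 77.1 ± 0.907 TPM, DICER1, which cuts the precursor, 13.2 ± 0.869 TPM, and KHSRP, which promotes let-7 maturation, 223 ± 6.17 TPM (SD, n = 3). The uridylyl transferases TUT4 and TUT7, which LIN28 recruits to let-7 precursors, had 16.8 ± 0.904 and 15.3 ± 0.490 TPM, and DIS3L2, which degrades the uridylated precursors, had 9.18 ± 0.185 TPM (SD, n = 3). TRIM71, itself a known let-7 target of embryonic cells, was listed at 0 in all 3 libraries.

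Mature let-7 cannot be read from these libraries of polyA RNA. Of the 12 hairpin rows of let-7 and miR-98, 1 had at least 1 TPM in every library, against 33.8% of all gene rows. This was MIRLET7D, with 3.89, 3.13 and 6.62 TPM in replicates 1, 2 and 3. Reads of a longer transcript that covers a hairpin cannot be told apart from reads of the hairpin itself. MIRLET7C and MIRLET7E were at 0 throughout. Of 6 named host transcripts, 4 had a row under the name searched. HUWE1, a ubiquitin ligase gene that hosts MIRLET7F2 and MIR98, had 114 ± 6.92 TPM, MIR100HG 6.09 ± 0.213 TPM, MIRLET7BHG 2.21 ± 0.131 TPM and MIR99AHG 0.874 ± 0.0337 TPM (SD, n = 3).

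Most other known let-7 targets were also present. Of 15 listed, 13 reached 1 TPM in every library, with a median of 36.9 TPM over the list. The cell cycle genes CDK6 and CDC25A had 69.2 ± 8.88 and 41.5 ± 3.02 TPM, and the small GTPase genes HRAS and NRAS had 60.0 ± 1.99 and 54.5 ± 2.595 TPM (SD, n = 3). MYCN and CCND2 were the exceptions, with 0.456 ± 0.0429 and 0.210 ± 0.0579 TPM (SD, n = 3). The shares of protein-coding rows given above, 59.5% at 1 TPM, are the background for these counts, and no list was tested against it.

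Partners and client mRNAs of the IGF2BP proteins were abundant with the exception of IGF2. Of 13 listed, 12 reached 1 TPM in every library, against 59.5% of protein-coding rows, and the list median was 134 TPM. YBX1 and PABPC1, RNA-binding proteins found with IGF2BP1, had 831 ± 5.32 and 823 ± 47.1 TPM, and the clients ACTB and CD44 had 5054 ± 192 and 92.4 ± 5.90 TPM (SD, n = 3). IGF2, the fetal growth factor mRNA after which the family is named, was listed at 0.0384 TPM in replicate 1 and at 0 in replicates 2 and 3.

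The other oncofetal genes were mostly low. Of 9 listed, 3 reached 1 TPM in every library, against 59.5% of protein-coding rows and 33.8% of all gene rows. The list median was 0.0162 TPM. H19, a long noncoding RNA beside IGF2, had 110, 130 and 126 TPM in replicates 1, 2 and 3, PEG10 had 65.4 ± 3.44 TPM (SD, n = 3), and SALL4 had 2.87 ± 0.227 TPM (SD, n = 3). AFP, GPC3 and DLK1, fetal liver genes that liver cancers often express, were below 0.1 TPM in every library, as were IGF2, EPCAM and TRIM71. Beside these, IGF2BP3 had a mean of 52.5 TPM and HMGA2 of 4.51 TPM.

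HMGA1 was at the level of the abundant members of the other high mobility group families, which bind DNA bends (HMGB) or nucleosomes (HMGN). Of 9 listed, 8 reached 1 TPM in every library, against 59.5% of protein-coding rows, with a list median of 86.6 TPM. HMGB1 had 339 ± 26.9 TPM, HMGN2 337 ± 10.8 TPM and HMGN1 300.0 ± 6.22 TPM (SD, n = 3), close to the 332 ± 23.3 TPM of HMGA1. HMGN5 had 7.70 ± 0.288 TPM (SD, n = 3), which was above HMGA2, and HMGB4 was at 0 throughout.

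**Figure D5:**
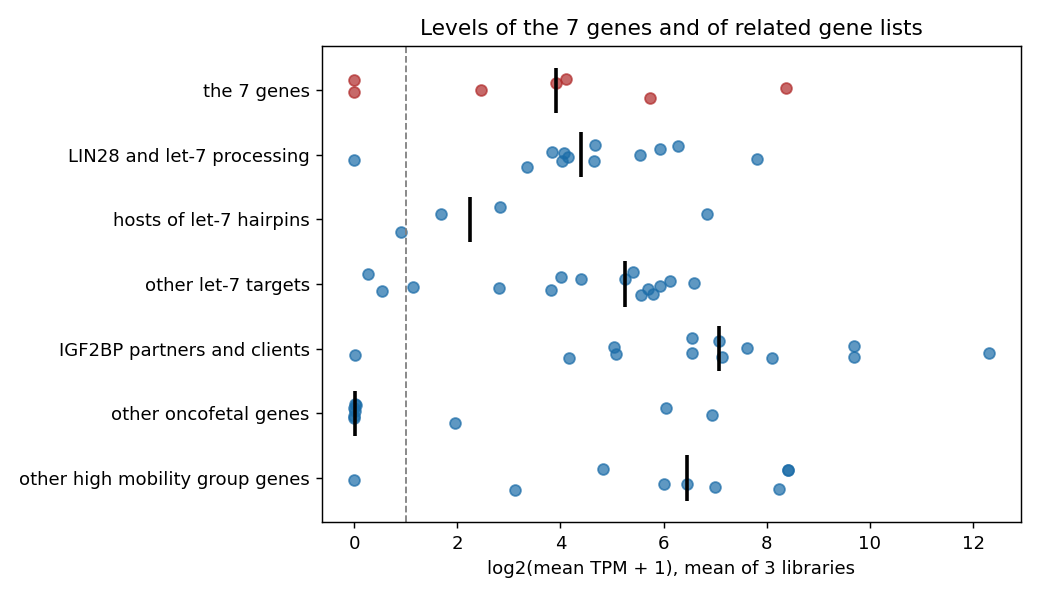
Mean level over 3 libraries, as log2(mean TPM + 1), of the 7 genes (red) and of 6 lists of related genes (blue, 1 point per gene with a row), with the list median (black line) and the level of 1 TPM (dashed line). The list of other oncofetal genes has 6 of 9 points at or near 0.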

How the data were processed

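PolyA RNA of cells labelled HepG2 was sequenced in 3 libraries. Per the labels and the study's methods, reads of 150 bp from both ends were checked with FastQC 0.11.8, trimmed with Trim Galore 0.6.2 and mapped by the authors to GRCh38 with STAR 2.6.1a. The submitters' processing notes also name StringTie, without a version. The annotation and strand setting are not given in the sources used here. The TPM, FPKM and coverage values (a signal not scaled for library size) are those deposited by the authors, 1 table per library.

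Rows of the 3 tables were joined by gene, strand and coordinates (43389 rows), and the 39320 on the main chromosomes were used. Depth is unknown, and SD over 3 libraries is the only error given. Ratios used log2(TPM + 1). A gene was counted as expressed at 1 TPM in every library. Biotypes came from RefSeq symbols, which matched 89.1% of rows. The genes named were the 7 members, rows overlapping them or with their symbol and a suffix, the 2 genes nearest to each in level, and genes from the lists, not all of which are reported here by name. Members and lists were chosen with earlier results of these data known. Mitochondrial tRNA TRNC took 16.9% to 17.2% of all TPM as deposited, more than its coverage gives. Log2 ratios, without 1 added, were tested on simulated data for genes above the level of HMGA2. The percentile, the permutation of signs and the p adjustment were checked on known values. The let-7 search and the list counts were not tested in this way. Alternatives were other pseudocounts, limits, measures and scalings, and leaving out each replicate. Python 3.11.15, numpy 2.4.6, pandas 2.3.3 and matplotlib 3.10.9 were used.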

Additional observations from a re-analysis of the deposited data

How the results depend on the processing

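None of the 4 log2 ratios changed sign with a pseudocount of 0.1, with FPKM, with coverage or without any 1 replicate. Each ratio pointed one way in 3 of 3 libraries, and a pseudocount or FPKM keeps the order of genes within a library. Only coverage could therefore have changed a sign. The 3 IGF2BP ratios moved most with coverage, to 0.60 for IGF2BP1 to IGF2BP2, -2.16 for IGF2BP1 to IGF2BP3 and -2.76 for IGF2BP2 to IGF2BP3, and HMGA2 to HMGA1 moved most with FPKM, to -5.66. TPM is FPKM times a fixed factor in each library, so the move with FPKM comes only from adding 1 to smaller values. With 0.1 added to TPM, HMGA2 to HMGA1 was -6.17. Leaving out each replicate in turn gave 0.13 to 0.23 for IGF2BP1 to IGF2BP2, -1.67 to -1.61 for IGF2BP1 to IGF2BP3, -1.86 to -1.80 for IGF2BP2 to IGF2BP3 and -5.93 to -5.88 for HMGA2 to HMGA1. With 3 libraries no setting can give a p below 0.25. LIN28B to LIN28A has no ratio under any setting, because both genes were listed at 0. The number of genes with at least 1 TPM in every library was 5 under every setting except a limit of 10 TPM, which gave 4 and left out HMGA2. Scaling without mitochondrially encoded genes multiplied every mean above 0 by 1.25, and median-of-ratios scaling by 0.997 to 0.999. The FPKM of TRNC was also recomputed as its coverage over the highest coverage per FPKM in the library. This multiplied every mean above 0 by 1.202, so the deposited FPKM of TRNC is above what its coverage gives. The percentile depends on the genes it is taken over: for HMGA2 it was 22.7, against 43.2 with a limit of 0.1 TPM, 72.9 with no limit and 15.6 among protein-coding genes. IGF2BP1 and IGF2BP2, at 51.3 and 47.6, rose to 64.2 and 61.5 with a limit of 0.1 TPM and 83.0 and 81.7 with none. Among protein-coding genes they were at 44.5 and 40.4, and by coverage at 45.5 and 36.4. No paired analysis was possible because the libraries have no other condition to be paired with, and the ratios above compare genes within each library. Without read counts, the 0 of LIN28A and LIN28B has no upper limit.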
